A study of Hydra vulgaris with 113 samples.

Results

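The widest peaks of open chromatin in regenerating Hydra were examined here. They were chosen by width alone: of 115968 peaks in the deposited ATAC-seq set for all libraries, 8840 (7.62%) had an end at least 1500 bp beyond their start. The rule used no counts, but width is itself an outcome of calling peaks on these reads and went with level across all peaks, as given below. The peaks are named by their row number in the deposited table and placed on its scaffolds. The assembly version, and whether positions count from 0 or from 1, are not given in the sources used here, and no gene annotation of these scaffolds was used.

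ATAC-seq maps open chromatin with a transposase that inserts sequencing adapters where DNA is accessible, so that promoters and enhancers appear as peaks of reads. A peak in such a set is an interval that a peak caller marks as enriched. A wide interval can be a broad accessible domain or several nearby elements that were joined into 1 interval, and the counts do not tell these apart. Hydra is a freshwater polyp that regrows a head or a foot from a cut body column, and canonical Wnt signalling, in which β-catenin acts with TCF transcription factors on target genes, is known for setting up the head organizer at the oral end. iCRT14 is a small molecule that interferes with the binding of β-catenin to TCF.

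Polyps of strain 105 were bisected at mid-body, and regenerating tips were collected at 0, 3, 8 or 12 h after the cut. Tips that regrow a head and tips that regrow a foot were kept apart and are called head and foot regenerates below. Animals were untreated or were held in 5 µM iCRT14 from 2 h before amputation until collection, so that the groups called 0 h in iCRT14 had already had the 2 h of inhibitor. This gave 71 ATAC-seq libraries in 16 groups of 3 to 5, with 36 untreated and 35 iCRT14 libraries, each made from about 15 pooled tips. The labels do not say whether replicates came from separate cultures, so p-values measure only the spread between these samples, which may be technical.

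Between 4.73 and 42.3 M counts (M, mega) fell in peaks per library, with a median of 13.6 M. Depth moved with the groups: the medians were 37.6 and 36.4 M in untreated head and foot regenerates at 3 h, 26.4 and 25.5 M at 0 h, and 8.62 and 9.53 M at 12 h. It was 7.82 M in head regenerates at 8 h in iCRT14. On the first principal component of the 2000 most variable peaks (48.2% of variance), the 10 untreated 0 h libraries lay between 39.5 and 48.6 and every other library at 26.4 or below. The 4 libraries of head regenerates at 12 h in iCRT14 were spread from -43.7 (replicate 3) to -6.05 (replicate 1). The part of depth in the counts of called peaks was not tested.

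The widest peaks took up 21.3% of the total length of all peaks (17.4 of 81.9 Mb) and held 17.4% of all counts. Their widths ran from 1500 to 6053 bp with a median of 1828 bp. Of them, 5790 were under 2000 bp, 2668 were from 2000 bp to under 3000 bp, and 382 were 3000 bp or wider. Per peak they were the band with the highest level: their median over all libraries was 12.4 CPM (the count scaled to the TMM-adjusted library size), against 3.19 CPM for all other peaks and 1.02 CPM for the 15232 peaks narrower than 250 bp. Per kb of peak the medians were close. The median density was 6.19 CPM per kb in the widest peaks and 6.16 CPM per kb in all others, and the band from 1000 bp to under 1500 bp was denser, at 7.85 CPM per kb.

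**Figure D1:**
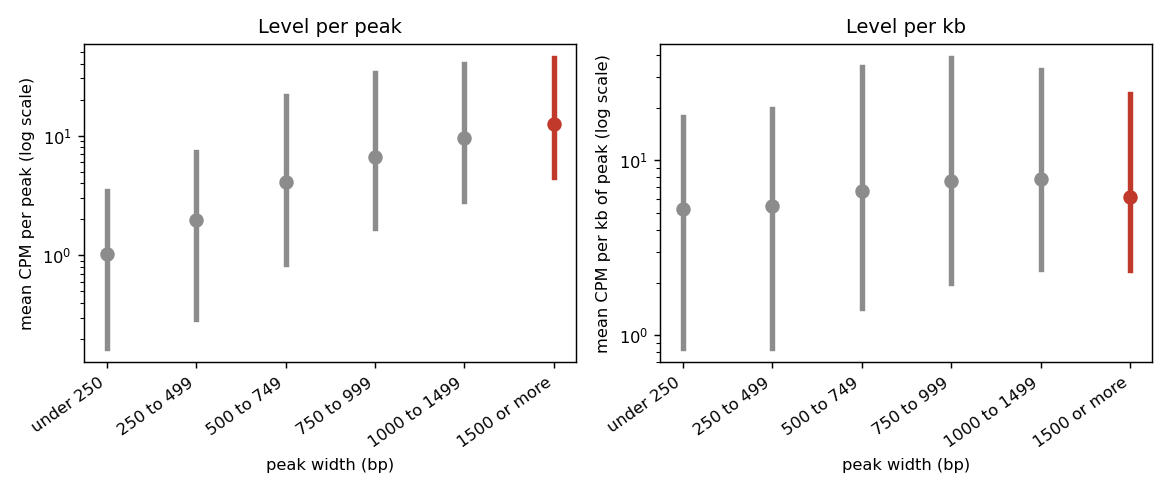
Accessibility by peak width. The left panel plots mean CPM per peak and the right panel mean CPM per kb of peak, both on log axes, for 6 bands of peak width in bp. Dots are medians and bars run from the 10th to the 90th percentile of peaks. The widest band, in red, has the highest median per peak (12.4 CPM) but a median per kb of 6.19 CPM, below the 7.85 CPM per kb of the band next to it.

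Within the widest peaks, width said little about level. Across the 8840 peaks Spearman's rho between width and mean CPM was 0.07, and between width and CPM per kb it was -0.15, whereas across all 115968 peaks the same values were 0.63 and 0.17. These are descriptions across peaks of the same libraries. The median density was 6.90 CPM per kb in the peaks under 2000 bp, 5.45 CPM per kb in the next band and 4.37 CPM per kb in those of 3000 bp or more. Values on either side of the width limit were close: the 187 peaks up to 10 bp narrower had a median of 11.6 CPM, and the 190 peaks of the first 10 bp above it 11.7 CPM.

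Of the 5 widest intervals, 3 were at low levels. Peak 60741, on scaffold Sc4wPfr_3619 from 20 to 6073, was the widest at 6053 bp and averaged 0.877 CPM. Peak 25591 (5549 bp, Sc4wPfr_1710, 5650 to 11199) averaged 0.408 CPM and peak 69306 (4986 bp, Sc4wPfr_4186, 68 to 5054) 0.372 CPM. The other 2 were above the median of the widest peaks: peak 38100 (5319 bp, Sc4wPfr_23.1, 112315 to 117634) averaged 13.95 CPM, and peak 69180 (4803 bp, Sc4wPfr_417.3, 1971480 to 1976283) averaged 31.8 CPM. Peak 69180 was called in none of the 24 comparisons made here, and its libraries lay between 22.8 and 39.7 CPM.

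At the upper end stood peak 16013, at a mean of 328 CPM (1813 bp, Sc4wPfr_135, 841899 to 843712). That mean includes 1 library at 7115 CPM, described with the inhibitor results, and without it the mean of the other 70 was 231 CPM. Next by mean over all libraries came peak 19952 (3815 bp, Sc4wPfr_1480, 3460 to 7275) with 260 CPM and no call in any comparison. Peaks 646, 103796 and 79406 followed with 245, 225 and 199 CPM. Peak 79406 (3510 bp, Sc4wPfr_5.2, 1184702 to 1188212) varied most of these, from 52.96 to 550 CPM across libraries, and was called in 9 comparisons.

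At the lower end, 202 of the widest peaks averaged under 1 CPM. Of these, 41 did not pass the filter on low counts, on 41 different scaffolds, and none of their values exceeded 18 counts. The lowest was peak 11502 (1822 bp, Sc4wPfr_1222, 76 to 1898) at 0.0881 CPM, followed by peaks 13799 and 109601 at 0.0938 and 0.0967 CPM. These 3 peaks never exceeded 4 counts in a library, and the smallest deposited count is 1. The remaining 8799 widest peaks were tested, and all percentages of called peaks refer to them.

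Of the widest peaks, 145 (1.64%) were the only peak on their scaffold, against 0.849% of all others. Their median level was 1.80 CPM, compared with 12.5 CPM for the rest of the widest peaks. In 60 of the 145 the peak started less than 100 bp from the scaffold start. Of the 202 peaks under 1 CPM, 58 were such lone peaks.

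Elsewhere the widest peaks were spread over the assembly in rough proportion to all peaks. They lay on 1570 of the 4010 scaffolds with peaks, at most 53 on a scaffold (Sc4wPfr_356, which has 503 peaks). On the 379 scaffolds with at least 100 peaks, their share ran from 1.63% on Sc4wPfr_545 (2 of 123) to 14.5% on Sc4wPfr_269 (20 of 138), with a median of 7.77%. Among peaks with another peak on either side on their scaffold, a direct neighbour was one of the widest for 15.9% of the widest (1320 of 8296) and for 14.4% of the others. The median gap to the nearest peak was 1871 bp for the widest and 1229 bp for the others. Of the 8126 uninterrupted runs of widest peaks, 7490 were of 1 peak, 571 of 2 and 53 of 3, and 12 were longer. The longest held 5 peaks, from peak 38098 to peak 38102 on Sc4wPfr_23.1 between 102005 and 125986. It included peak 38100, one of the 5 widest, which averaged 13.95 CPM, while peaks 38098, 38099, 38101 and 38102 averaged 3.08, 3.65, 5.48 and 3.32 CPM.

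The deposited peak set made for the untreated libraries alone, with 106568 peaks, was set beside these intervals. Of the widest peaks, 8057 overlapped exactly 1 interval of that set (91.1%, against 90.4% of the other peaks), 560 overlapped several (6.33%, against 0.537%) and 223 overlapped none (2.52%, against 9.10%). A wider interval has more room to overlap others, so these contrasts are not independent of the width rule. In that set 7704 of the widest peaks met an interval that was also 1500 bp or wider. An example of several is peak 81917 (3123 bp, Sc4wPfr_520, 1655410 to 1658533), called in 17 comparisons, which overlapped 2 intervals there, the wider of 1768 bp.

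The share of a library's counts that fell in the widest peaks moved little, from 16.3% to 18.8% over the 71 libraries, with a median of 17.4%. In untreated regenerates it was lower at 12 h than at 0 h. The 5 head libraries at 0 h lay between 17.5% and 17.7% (17.6% ± 0.0948, SD, n = 5) and those at 12 h between 16.3% and 17.1% (16.7% ± 0.352, SD, n = 5). The foot libraries lay between 17.2% and 17.8% at 0 h (17.5% ± 0.234, SD, n = 5) and between 16.3% and 17.0% at 12 h (16.7% ± 0.265, SD, n = 5). The 0 h and 12 h libraries did not overlap on either side. The highest shares were in head regenerates at 8 h in iCRT14, between 17.6% and 18.8% (18.2% ± 0.503, SD, n = 5), against 17.2% to 17.7% without inhibitor (17.4% ± 0.252, SD, n = 5), and these groups overlapped. Across libraries the share followed depth weakly (Spearman's rho 0.16, n = 71, a description). The untreated 12 h libraries were all shallower than those of 0 h, at 6.87 to 13.8 M against 24.4 to 30.1 M counts in head regenerates. In foot regenerates they held 8.22 to 14.4 M against 20.6 to 27.4 M. The smallest depth, though, was in the group with the highest share. The part of depth in the share at 12 h and in that highest share was not tested.

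**Figure D2:**
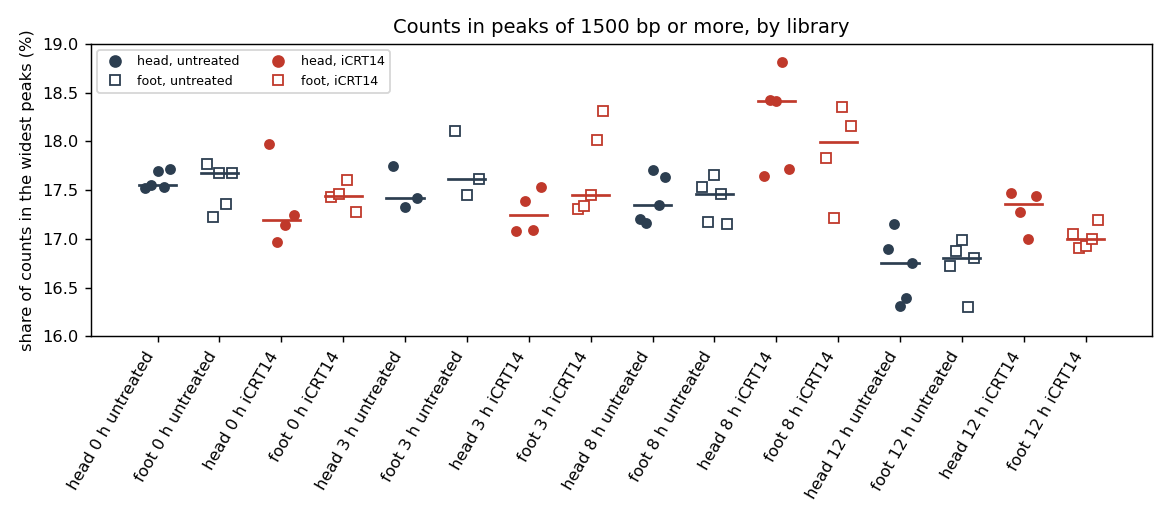
Share of each library's counts that fell in peaks of 1500 bp or more. Each symbol is 1 library of the 71, in 16 groups ordered by time and treatment, with filled circles for head and open squares for foot regenerates and red for iCRT14. Horizontal lines are group medians, and the axis runs from 16% to 19%, not from 0. The untreated 12 h groups are the lowest (16.3% to 17.1%) and head regenerates at 8 h in iCRT14 reach 18.8%.

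Libraries of the same group agreed more closely in the widest peaks than in other peaks. Within groups, the SD of log2 values had a median of 0.220 in the widest and 0.317 in all others. At matched level the values were near each other: at 5 to 10 CPM they were 0.269 and 0.262, and at 20 to 50 CPM 0.178 and 0.190. Of the tested widest peaks 22.5% averaged 20 to 50 CPM and 8.04% averaged 50 CPM or more, against 9.05% and 1.91% of the others.

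The 24 comparisons were run over all 108934 tested peaks, and the counts below are of peaks with a Benjamini-Hochberg adjusted p below 0.05 in edgeR's quasi-likelihood test. At least 1 call was made in 6783 of the widest peaks, while 2016 (22.9%) had none, against 38.6% of the other peaks. In the comparisons with 0 h and with the inhibitor, a larger share of the widest peaks than of the others was called each time. This was not particular to the widest: in each, the band from 1000 bp to under 1500 bp was called more often than any narrower band. In head regenerates at 3 h with the inhibitor that band stood at 17.98% and the widest at 17.96%. In foot regenerates at 3 h against 0 h they lay further apart, at 18.8% and 25.5%. With a change of at least 2-fold added to the rule, the share in these comparisons was smaller in the widest peaks than in the others, except in both 3 h comparisons with 0 h. For gains alone it was larger there, and with the inhibitor in head regenerates at 8 h (2.68% against 2.47%) and on both sides at 12 h. For losses alone it was smaller in all of them. Over all tested peaks the median size of change was smaller in the widest peaks in every comparison, for example 0.240 against 0.304 on the log2 scale for head regenerates at 12 h against 0 h. No test of the list as a whole was made, and the comparisons with 0 h share their 0 h libraries.

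**Figure D3:**
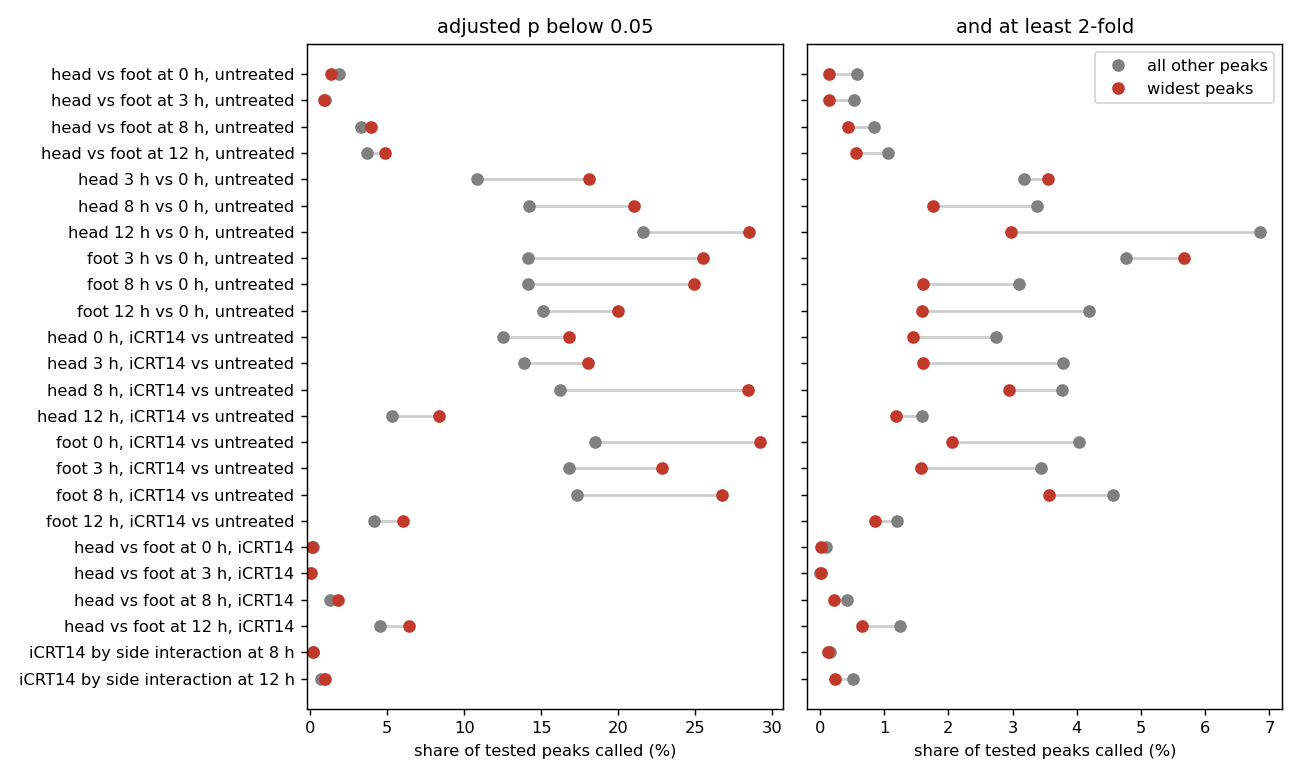
Share of tested peaks called in each of the 24 comparisons, for the widest peaks in red and all other peaks in grey. The left panel counts calls at an adjusted p below 0.05 and the right panel only those with at least a 2-fold change, in percent of tested peaks. On the left red lies beyond grey in every comparison with 0 h or with the inhibitor. Among those comparisons it does so on the right for the 3 h comparisons with 0 h alone.

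The level of a peak moved with these shares. Among peaks of 20 to 50 CPM, 42.6% of the widest and 27.5% of the others were called in head regenerates at 12 h against 0 h. Among those of 5 to 10 CPM the order was turned, with 16.9% of the widest and 31.2% of the others. For foot regenerates at 3 h against 0 h the widest stood higher from 5 CPM upwards, with 24.6% against 21.0% at 5 to 10 CPM and 30.1% against 17.6% at 20 to 50 CPM.

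**Figure D4:**
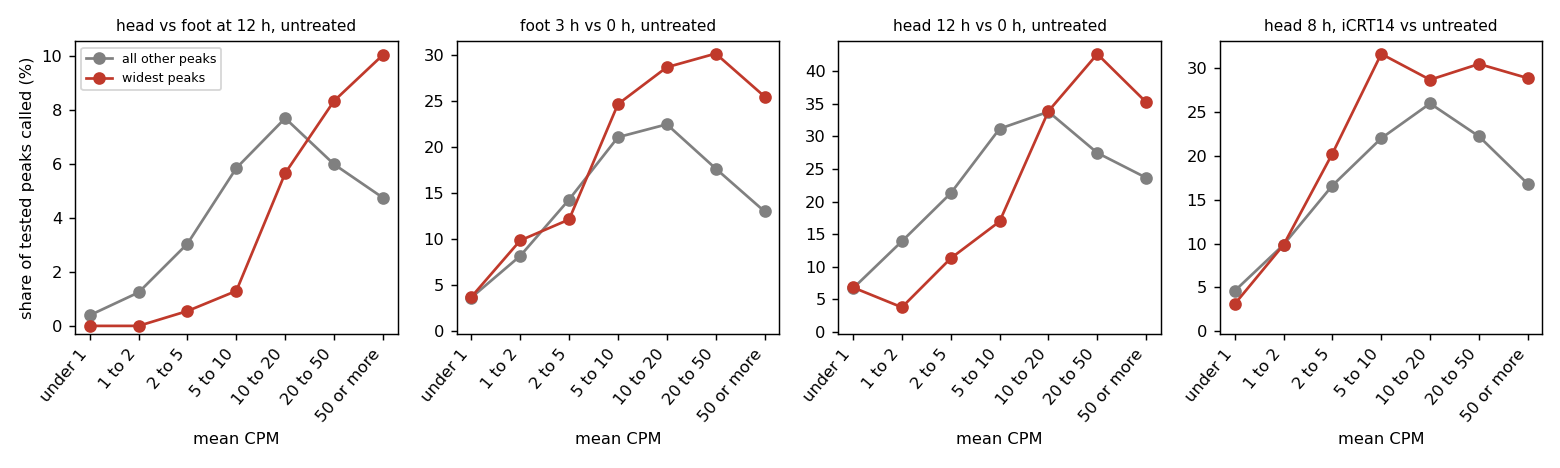
Share of tested peaks called (adjusted p below 0.05, in percent) by mean level in CPM, for 4 comparisons. Red is the widest peaks and grey all other peaks. Red lies above grey at 20 CPM and more in all 4 panels, and below it from 1 to 10 CPM in the panels of head against foot and of head regenerates at 12 h.

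Many of the widest peaks differed from 0 h after the cut. In head regenerates at 3 h, 1594 of the widest peaks differed from 0 h (18.1%, against 11.4% of all tested peaks), 804 higher (background 5.43%) and 790 lower (5.94%). In foot regenerates 2246 differed (25.5%, against 15.0%), 1063 higher (6.60%) and 1183 lower (8.40%). These background shares in parentheses are of all tested peaks. Changes of at least 2-fold made up 3.55% of the widest peaks in head regenerates, against 3.21% of all tested, with 247 higher (1.75%) and 65 lower (1.45%). In foot regenerates they made up 5.67%, against 4.84%, with 386 higher (2.79%) and 113 lower (2.04%). Both sides called 1335 peaks at 3 h, 679 higher and 656 lower on both, which is 83.8% of the head and 59.4% of the foot calls, against 72.5% and 55.5% for the other peaks. The sides were compared with their own 0 h libraries, so this overlap shares no library. It need not be independent, though, because untreated replicates of equal number varied alike across the sides at 3 h (correlation r between 0.36 and 0.71, 3 pairs). At 0 h this r was between 0.05 and 0.35 (5 pairs). The part of such pairing in the overlap was not tested.

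The largest gain on both sides was in peak 98118 (2240 bp, Sc4wPfr_706.2, 502389 to 504629). In head regenerates its 0 h libraries held 9.59, 10.2, 11.2, 10.9 and 10.8 CPM, and its 3 h libraries 344, 133 and 182 CPM. In foot regenerates it held 5.87 to 10.4 CPM at 0 h and 325, 176 and 161 CPM at 3 h. Every 3 h library lay above every 0 h library, with a log2 fold change of 4.38 ± 0.25 (SE, adjusted p = 1.06e-24, n = 3 and 5) in head and 4.68 ± 0.26 (adjusted p = 4.09e-26) in foot regenerates. By 8 h head regenerates held 49.3 ± 7.57 CPM and those of the foot 29.5 ± 2.95 CPM (SD, n = 5).

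The next gains at 3 h were in peaks 106951 (head) and 101585 (foot). Peak 106951 (1572 bp, Sc4wPfr_844, 31022 to 32594) went from 3.68 ± 0.470 CPM (SD, n = 5) to 48.7 ± 11.1 CPM (n = 3) in head regenerates, and its groups did not overlap. Peak 101585 (1694 bp, Sc4wPfr_758, 489905 to 491599) held 1.64 to 3.19 CPM in the foot libraries at 0 h and 62.3, 60.8 and 59.9 CPM at 3 h (log2 fold change 4.48 ± 0.29, adjusted p = 5.81e-22). Its head libraries held 35.3, 26.6 and 50.01 CPM at 3 h, 8.80 to 19.4 CPM at 8 h and 32.3, 29.4, 58.8, 69.6 and 56.8 CPM at 12 h, so that 8 h overlapped with neither 3 h nor 12 h. Against 0 h the 12 h level was 3.99 ± 0.27 higher on the log2 scale in head (adjusted p = 1.98e-21) and 3.15 ± 0.28 higher in foot regenerates (adjusted p = 4.12e-15).

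The largest losses at 3 h were in peaks 73517 and 86112. Peak 73517 (2475 bp, Sc4wPfr_45.2, 51270 to 53745) held 57.4, 66.9, 82.2, 68.1 and 61.1 CPM in the head libraries at 0 h and 14.5, 14.5 and 10.6 CPM at 3 h, a log2 change of -2.35 ± 0.21 (adjusted p = 3.45e-15). In head regenerates it was at 14.3 ± 3.00 CPM at 8 h and 10.9 ± 1.10 CPM at 12 h (SD, n = 5). In foot regenerates it was at 43.7 ± 6.08 CPM at 0 h (n = 5), 7.57 ± 2.16 CPM at 3 h (n = 3) and 29.3 ± 6.65 CPM at 8 h (SD, n = 5). The lowest of these 8 h foot libraries, 20.9 CPM, was above every head library of that time. It was among the 3 peaks called in the most comparisons, 17 of 24.

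Peak 86112 (2167 bp, Sc4wPfr_569, 305709 to 307876) held 152, 166, 153, 157 and 221 CPM in the foot libraries at 0 h and 20.4, 28.0 and 25.3 CPM at 3 h. The groups did not overlap, and the log2 change was -2.79 ± 0.30 (adjusted p = 5.65e-12). It was also the largest called loss of foot regenerates at 8 h (27.2 ± 3.51 CPM, log2 change -2.64 ± 0.25, adjusted p = 7.29e-14) and 12 h (21.9 ± 3.21 CPM, -2.95 ± 0.26, adjusted p = 1.55e-15, SD and n = 5). Peaks 108340 in head and 78749 in foot regenerates were next at 3 h, with log2 changes of -2.29 ± 0.21 and -2.67 ± 0.21.

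By 8 h, 1849 of the widest peaks differed from 0 h in head regenerates (21.0%, against 14.7% of all tested peaks) and 2187 in foot regenerates (24.9%, against 15.0%). In head regenerates 758 were higher (background 6.46%) and 1091 lower (8.26%). In foot regenerates 978 were higher (6.0%) and 1209 lower (8.97%). This split depended on scaling: with library size alone, which put the median of all tested peaks in foot regenerates at 0.12 on the log2 scale, 1017 were higher and 798 lower in the head set, and 1458 higher and 729 lower in the foot set. Peak 71794 (1569 bp, Sc4wPfr_439, 1739281 to 1740850) had the largest gain of head regenerates at 8 h. Its head libraries held 1.10, 2.32, 1.88, 1.99 and 2.36 CPM at 0 h and 17.1, 7.99, 12.8, 18.5 and 32.5 CPM at 8 h, without overlap (log2 fold change 3.22 ± 0.33, adjusted p = 1.45e-12). In foot regenerates, after the low-count peak 68880, peak 46559 (2376 bp, Sc4wPfr_272, 465826 to 468202) went from 7.57 ± 1.15 to 34.0 ± 4.54 CPM (SD, n = 5, log2 fold change 2.16 ± 0.20, adjusted p = 8.78e-14). The losses of head regenerates were led by peak 73517 (-2.24 ± 0.17) and peak 96984 (-2.19 ± 0.16), and peak 11433 followed peak 86112 in foot regenerates (-1.54 ± 0.15). Without replicate 3 of every group 815 were called in head regenerates at 8 h, and without replicate 4 973 in foot regenerates.

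At 12 h losses outnumbered gains. In head regenerates 2510 of the widest peaks differed from 0 h (28.5%, against 22.2%), with 764 higher (8.68%, against 10.0%) and 1746 lower (19.8%, against 12.2%). In foot regenerates 1757 of 8799 differed (background 15.5%), with 462 higher (5.25%, against 6.02%) and 1295 lower (14.7%, against 9.47%). Changes of at least 2-fold were fewer among the widest peaks than among all tested peaks, 2.98% against 6.54% in head and 1.59% against 3.98% in foot regenerates. The share of gains among the calls was 30.4% in the widest peaks of head regenerates and 61.9% in the peaks under 250 bp.

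Peak 71794 was the largest gain of head regenerates at 12 h as well, at 32.1, 31.0, 25.8, 32.8 and 35.95 CPM (log2 fold change 4.03 ± 0.33, adjusted p = 2.15e-17). Peak 110143 (2073 bp, Sc4wPfr_884, 131121 to 133194) was the largest loss. It held 56.4, 67.8, 71.6, 63.7 and 80.7 CPM in head regenerates at 0 h, 29.7, 51.1 and 37.0 CPM at 3 h, 14.5, 12.7, 21.4, 15.8 and 28.9 CPM at 8 h and 10.7, 11.4, 8.17, 8.72 and 8.88 CPM at 12 h. No 2 neighbouring times overlapped, and the log2 change at 12 h was -2.81 ± 0.19 (adjusted p = 1.88e-21). In foot regenerates at 12 h, peak 88040 (2381 bp, Sc4wPfr_59.2, 1088776 to 1091157) was the gain after peak 101585, from 9.51 ± 0.990 to 65.5 ± 11.9 CPM (SD, n = 5, log2 fold change 2.79 ± 0.16, adjusted p = 4.29e-25). Peak 11010 (1572 bp, Sc4wPfr_1211, 79454 to 81026) was the loss after peak 86112, from 17.1 ± 3.98 to 2.96 ± 1.25 CPM (log2 change -2.52 ± 0.26, adjusted p = 2.03e-12).

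Between the sides, fewer of the widest peaks differed, and the number was larger at 8 and 12 h. At 0 h it was 118 (1.34%, against 1.81% of all tested peaks), 48 higher in head (background 0.734%) and 70 higher in foot regenerates (1.07%). At 3 h it was 77 (0.875%, against 0.933%), 38 higher in head (0.442%) and 39 in foot regenerates (0.490%), and with library size alone 31 and 53. At 8 h it was 349 (3.97%, against 3.32%), of which 239 were higher in head (2.38%) and 110 in foot regenerates (0.940%). At 12 h it was 424 (4.82%, against 3.75%), 237 higher in head (2.40%) and 187 in foot regenerates (1.35%). Replicate numbers paired the sides at 3 h, and a fit with the pairs as a block called 213 there (2.42%, against 2.07% of the other peaks), so that the order of the shares turned. Differences of at least 2-fold were rarer than in all tested peaks at every time: 12 at 0 h (0.136%, against 0.541%), 13 at 3 h (0.148%, against 0.494%), 39 at 8 h (0.443%, against 0.808%) and 49 at 12 h (0.557%, against 1.02%).

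Peaks 110143 and 65672 led the side differences in the first hours. Peak 110143, given above for head regenerates, held 20.045, 20.4, 29.8, 21.2 and 22.7 CPM in the foot libraries at 0 h, all below the head libraries, and was 1.58 ± 0.17 higher in head regenerates on the log2 scale (adjusted p = 8.74e-11). At 3 h its foot libraries held 9.48, 11.2 and 8.9975 CPM (1.99 ± 0.23, adjusted p = 5.17e-09). Peak 65672 (1577 bp, Sc4wPfr_39, 2461166 to 2462743) was the opposite case. Its head libraries held 3.40, 3.03, 3.13, 2.97 and 3.43 CPM at 0 h and its foot libraries 11.3, 17.0, 17.2, 15.9 and 19.9 CPM, so that the log2 difference was -2.34 ± 0.19 (adjusted p = 8.91e-16). At 3 h it held less on both sides, with 1.66, 1.74 and 1.93 CPM in head against 6.36, 5.08 and 8.04 CPM in foot regenerates, and the sides still did not overlap (-1.87 ± 0.26, adjusted p = 6.16e-07). Peak 40893 was next for head at 0 h (1.17 ± 0.14), and peak 20517 was next for foot regenerates at 0 h (-1.71 ± 0.18) and 3 h (-1.69 ± 0.23). Peak 46580 was next for head regenerates at 3 h (1.33 ± 0.24), but was not called without replicate 2 or in a fit of those groups alone.

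At 8 h the largest side difference was in peak 39954 (1506 bp, Sc4wPfr_240, 691522 to 693028). Its head libraries held 101, 72.4, 59.98, 83.3 and 126 CPM and its foot libraries 12.1, 11.5, 12.5, 13.6 and 22.3 CPM (log2 difference 2.61 ± 0.32, adjusted p = 2.29e-09). At 3 h this peak had been high on both sides, at 139 ± 38.3 CPM (head) and 177 ± 16.4 CPM (foot, SD, n = 3 each). Higher in foot regenerates was peak 26760 (2152 bp, Sc4wPfr_1747, 507619 to 509771), at 29.2, 14.7, 29.1, 21.0 and 20.1 CPM in head against 89.6, 64.8, 63.6, 88.4 and 37.8 CPM in foot regenerates. These groups did not overlap, and the log2 difference was -1.59 ± 0.21 (adjusted p = 2.61e-08). Peak 22986 was next for head (1.70 ± 0.17) and peak 26754 for foot regenerates (-1.46 ± 0.19).

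At 12 h peak 86119 (1638 bp, Sc4wPfr_569, 336808 to 338446) was highest in head regenerates relative to foot. It held 22.4, 29.8, 23.1, 24.4 and 30.9 CPM in head and 5.07, 5.63, 6.94, 6.47 and 6.57 CPM in foot libraries (log2 difference 2.10 ± 0.20, adjusted p = 1.49e-13). Peak 71794 was next, with 31.5 ± 3.71 CPM (head) against 7.95 ± 3.00 CPM (foot, SD, n = 5, 2.02 ± 0.31, adjusted p = 1.58e-06). Peak 83012 (1501 bp, Sc4wPfr_536, 1021478 to 1022979) led on the foot side, at 7.41, 7.64, 11.3, 11.1 and 9.16 CPM in head and 34.9, 31.9, 40.8, 49.6 and 41.8 CPM in foot libraries (-2.11 ± 0.18, adjusted p = 9e-16). The sides did not overlap in any of these 3 peaks. Peak 68283 was next for foot regenerates (-1.88 ± 0.15).

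**Figure D5:**
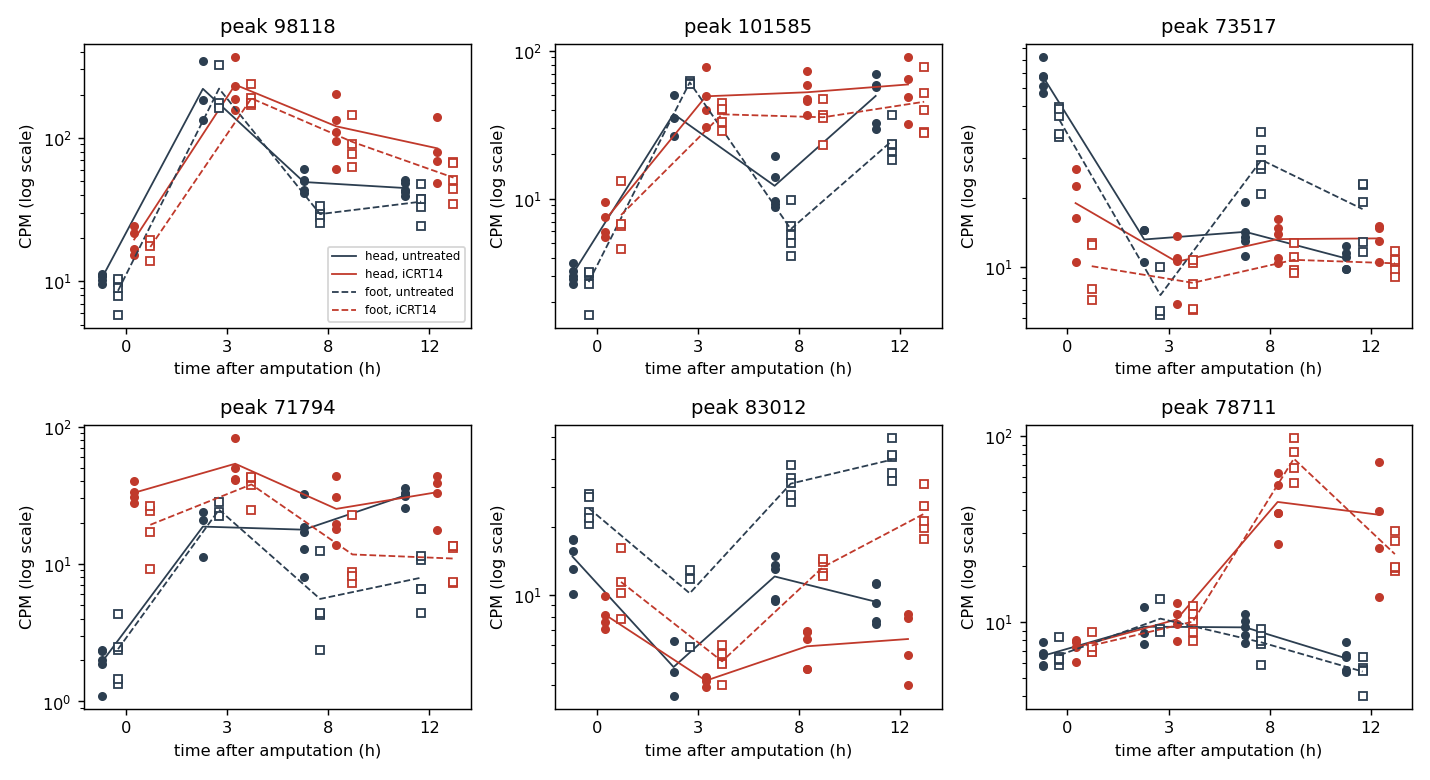
CPM (log axis) of 6 of the widest peaks against time after amputation in h, at 0, 3, 8 and 12 h. Each symbol is 1 library, with filled circles for head and open squares for foot regenerates, dark for untreated and red for iCRT14, and lines join group means. Peak 98118 is at 133 CPM or more in all untreated 3 h libraries, the untreated sides of peak 83012 do not overlap at 8 and 12 h, and peak 78711 reaches 13.7 CPM in the libraries of 8 and 12 h in iCRT14 alone.

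The inhibitor was compared with no inhibitor at matched side and time. Widths are those of the peak set for all libraries, so reads in iCRT14 could help a peak reach 1500 bp. Of the 8840 widest peaks, 7704 (87.1%) met an interval at least that wide in the untreated set. The part of this in the counts and directions with the inhibitor was not tested. At 0 h, after the 2 h of pre-incubation, 1479 of the widest peaks differed in head (16.8%, against 12.8% of all tested peaks) and 2568 in foot regenerates (29.2%, against 19.4%). At 3 h the numbers were 1580 (18.0%, against 14.2%) and 2005 (22.8%, against 17.3%). At 8 h they were 2503 (28.4%, against 17.2%) and 2350 (26.7%, against 18.1%). At 12 h they were 733 (8.33%, against 5.58%) and 531 (6.03%, against 4.28%). At 0, 3 and 8 h the inhibitor groups had the lower median depth on both sides, at 12 h the higher, and the part of depth was not tested.

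By direction, most called peaks of head regenerates at 0 and 3 h were lower in iCRT14. At 0 h 1071 were lower (background 8.04%) and 408 higher (4.79%), and at 3 h 1105 were lower (8.95%) and 475 higher (5.27%). With library size alone 889 of 1528 and 975 of 1658 were lower. In foot regenerates 1386 were lower (10.8%) and 1182 higher (8.61%) at 0 h, and 1301 lower (11.8%) and 704 higher (5.47%) at 3 h. In these, with library size alone, which put the median of all tested peaks at 0.17 and 0.13 on the log2 scale, 984 of 2776 and 1074 of 2172 were. In head regenerates at 8 h most were higher in iCRT14, 1621 (18.4%, against 8.67% of all tested peaks) against 882 lower (10.0%, against 8.56%). In foot regenerates at 8 h 1178 were higher (13.4%, against 8.40%) and 1172 lower (13.3%, against 9.67%), and without the filter on low counts 1055 and 1325. At 12 h 564 were higher (6.41%, against 3.18%) and 169 lower (1.92%, against 2.40%) in head regenerates. In foot regenerates 336 were higher (3.82%, against 2.22%) and 195 lower (2.22%, against 2.06%). Without replicate 3 of the head 12 h iCRT14 group, the lowest of that spread group on the first component (-43.7), 410 were called in place of 733.

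In head regenerates at 8 h in iCRT14 the direction also differed by level. Of the widest peaks at 5 to 10 CPM 31.6% were called, 713 higher and 43 lower in iCRT14, against 22.0% of the others, 1611 higher and 2083 lower. At 20 to 50 CPM 30.5% of the widest were called, 178 higher and 425 lower, against 22.2% of the others, 290 higher and 1725 lower. The iCRT14 libraries of this comparison held 4.73 to 10.2 M counts and the untreated ones 13.5 to 24.2 M, and the part of that difference was not tested.

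Peak 71794 had the largest difference at 0 h on both sides. Its head libraries held 33.2, 27.8, 40.5 and 30.5 CPM in iCRT14, against 1.10 to 2.36 CPM without it (log2 difference 4.10 ± 0.34, adjusted p = 2.37e-16). Its foot libraries held 9.26, 24.3, 26.5 and 17.0 CPM in iCRT14, against 1.34, 1.47, 2.36, 2.48 and 4.36 CPM (3.05 ± 0.34, adjusted p = 9.34e-11). The treated head libraries overlapped in level with the untreated head libraries of 12 h given above. Peak 83227 (2915 bp, Sc4wPfr_540.1, 748976 to 751891), also called in 17 comparisons, was next on both sides, from 7.89 ± 2.63 to 53.5 ± 17.1 CPM in head and from 9.77 ± 4.16 to 48.6 ± 12.8 CPM in foot regenerates (SD, n = 5 and 4). Peak 11010 was the largest decrease on both sides, at 2.05, 2.00, 1.76 and 1.40 CPM in iCRT14 against 9.24, 15.1, 11.03, 11.7 and 12.3 CPM in head regenerates (-2.71 ± 0.28, adjusted p = 5.14e-12). In foot regenerates it held 3.84, 2.67, 1.98 and 4.24 CPM against 10.1, 19.6, 17.8, 19.5 and 18.7 CPM (-2.45 ± 0.27, adjusted p = 9.34e-11). Peak 2749 was next for head (-2.003 ± 0.15) and peak 73517 for foot regenerates (-2.11 ± 0.19).

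At 3 h peak 67720 (2209 bp, Sc4wPfr_399.2, 791469 to 793678) was the largest decrease of head regenerates. Its libraries held 15.9, 4.27, 5.98 and 3.86 CPM in iCRT14 and 73.6, 70.5 and 40.7 CPM without it, with no overlap (-3.13 ± 0.28, adjusted p = 3.66e-14). In foot regenerates it was at 6.58 ± 2.43 CPM (n = 5) against 25.8 ± 7.41 CPM (SD, n = 3), next to peak 22700 (3615 bp, Sc4wPfr_161, 1142691 to 1146306), which held 20.6, 20.001, 17.8, 20.7 and 29.3 CPM in iCRT14 and 89.8, 85.5 and 83.4 CPM without it (-1.998 ± 0.16, adjusted p = 1.15e-16). Gains were led by peaks 113778 and 113776 on Sc4wPfr_950. Peak 113778 (1618 bp, 824637 to 826255) held 40.5, 37.5, 27.1 and 25.6 CPM in iCRT14 and 6.19, 5.39 and 9.05 CPM without it in head regenerates (2.24 ± 0.27, adjusted p = 2.69e-09). Peak 113776 (1610 bp, 820489 to 822099) was called on both sides, at 2.18 ± 0.29 in head and 1.75 ± 0.28 in foot regenerates. In the untreated peak set each of these overlapped 2 intervals, the wider being 642 bp for peak 113778 and 362 bp for peak 113776. Both thus met the width limit only in the set that includes the iCRT14 libraries.

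At 8 h the largest gains were in peaks 67670 and 78711 of foot and peaks 36995 and 40674 of head regenerates. Peak 67670 (1517 bp, Sc4wPfr_399.2, 461683 to 463200) held 179, 99.2, 82.4 and 66.6 CPM in iCRT14 and 8.66 to 10.5 CPM in the 5 untreated foot libraries (3.46 ± 0.27, adjusted p = 1.39e-17). Peak 78711 (1704 bp, Sc4wPfr_494, 246620 to 248324) held 97.5, 82.0, 67.0 and 55.7 CPM in iCRT14 and 5.87 to 9.14 CPM without it (3.28 ± 0.21, adjusted p = 2.1e-21). Neither peak's groups overlapped. In head regenerates peak 36995 (1512 bp, Sc4wPfr_226, 224264 to 225776) held 7.29, 6.38, 6.12, 3.58 and 6.25 CPM in iCRT14 and 0.364 to 1.51 CPM without it (3.04 ± 0.34, adjusted p = 3.7e-11). In the untreated peak set peak 36995 overlapped 2 intervals, the wider of 416 bp. It thus met the width limit only in the set that includes the iCRT14 libraries. Peak 40674 went from 8.07 ± 0.706 to 52.0 ± 25.6 CPM (SD, n = 5, 2.70 ± 0.27).

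Peaks 106519 and 46580 were called lower in iCRT14 in several comparisons. Peak 106519 (2245 bp, Sc4wPfr_834.1, 775586 to 777831) held 5.41, 9.52, 6.59, 15.8 and 7.94 CPM in iCRT14 and 61.7, 25.4, 40.0, 34.4 and 43.7 CPM without it in head regenerates at 8 h (-2.23 ± 0.21, adjusted p = 1.59e-13), and was lower at 12 h too (-2.01 ± 0.22, adjusted p = 1.02e-10). Peak 46580 (1618 bp, Sc4wPfr_272, 573660 to 575278) held 13.5, 37.0, 20.4 and 17.9 CPM in iCRT14 and 121, 117, 93.1, 134 and 115 CPM without it in foot regenerates at 8 h (-2.38 ± 0.21, adjusted p = 3.99e-15). It was also among the largest called decreases of head regenerates at 3 h (-2.43 ± 0.25) and 8 h (-2.09 ± 0.20). Peak 44383 was next for foot regenerates at 8 h (-1.68 ± 0.23). None of these groups overlapped.

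At 12 h peak 78711 led the gains of head regenerates, at 13.7, 25.035, 72.9 and 39.4 CPM in iCRT14 against 5.41 to 7.79 CPM (2.53 ± 0.23, adjusted p = 9.32e-14). Peak 40668 followed, at 11.8, 25.1, 85.7 and 40.6 CPM against 7.61 to 11.5 CPM (2.13 ± 0.29, adjusted p = 6.16e-08). In both the highest value was in replicate 3 and the lowest in replicate 1, in the order of these libraries on the first component. In foot regenerates peak 104282 (1759 bp, Sc4wPfr_802, 205324 to 207083) held 5.61, 5.11, 5.00, 5.40 and 5.19 CPM in iCRT14 and 1.13, 1.65, 0.718, 0.669 and 0.758 CPM without it (2.33 ± 0.31, adjusted p = 4.57e-08), followed by peak 101572 (2.27 ± 0.25). Peak 101572 overlapped 2 intervals of the untreated set, the wider of 1272 bp, and so met the width limit only in the set with the iCRT14 libraries. Peak 50234 (1706 bp, Sc4wPfr_292, 1889797 to 1891503) was the largest decrease, at 1.75, 1.02, 0.652, 0.559 and 1.15 CPM against 4.86, 2.55, 2.63, 3.79 and 4.04 CPM (-1.78 ± 0.31, adjusted p = 2.16e-05), followed by peak 78674 (-1.49 ± 0.21).

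Some of the large fold changes rested on very few counts. Peak 112667 (1514 bp, Sc4wPfr_925, 6197 to 7711) was called at 12 h for head in iCRT14 against no inhibitor (adjusted p = 0.049) and against foot regenerates in iCRT14 (adjusted p = 0.0474), with 1 count, the smallest deposited value, in each head iCRT14 library (0.0668 to 0.103 CPM). Leaving out any replicate number ended both calls. Peaks 68880 (foot regenerates at 8 h against 0 h, adjusted p = 0.00443), 19950 (foot regenerates at 3 h, iCRT14, adjusted p = 0.0452) and 75207 (head against foot regenerates at 12 h in iCRT14, adjusted p = 0.0273) averaged 0.386, 0.373 and 0.625 CPM over all libraries. Among the 161 tested widest peaks under 1 CPM, 29 were called in head (18.0%) and 34 in foot regenerates (21.1%) at 8 h against 0 h, all higher, against 6.12% and 6.09% of the other peaks under 1 CPM. In foot regenerates at 0 h in iCRT14 against no inhibitor 29 were called too, all higher (18.0%, against 7.65%). With 1 subtracted from every count, 141 such peaks were tested, and 14, 18 and 12 were called in these comparisons, again all higher.

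Within the inhibitor the sides differed in few of the widest peaks until 8 h in the main fit. This course depended on the model. With only the groups compared, more were called at 0 h than at 8 h. With pairs as a block more were called at every time, as given further below. In the main fit the number at 0 h was 9 (0.102%, against 0.162% of all tested peaks). Of these 7 were higher in head (background 0.122%) and 2 in foot regenerates (0.0395%), and with library size alone 10 and 7. The number was at 3 h 1 (0.0114%, against 0.00459%), at 8 h 158 (1.80%, against 1.30%) and at 12 h 561 (6.38%, against 4.65%). At 12 h 361 were higher in head (background 3.06%) and 200 in foot regenerates (background 1.59%), and without head replicate 3 of that group the number called was 338. At 0 h the call for peak 110143 was of the same direction as without inhibitor, at 30.8, 18.7, 19.6 and 37.2 CPM in head against 8.01, 8.96, 8.46 and 12.4 CPM in foot regenerates (1.495 ± 0.21, adjusted p = 3.86e-06). Peak 115439 (1919 bp, Sc4wPfr_977, 483540 to 485459) was lower in head regenerates, at 25.3, 28.8, 30.4 and 33.1 against 54.2, 41.1, 43.9 and 40.6 CPM (-0.61 ± 0.15, adjusted p = 0.0451). That call was lost under 6 of 13 alternatives, among them DESeq2 size factors, no filter and leaving out replicate 1, 2, 3 or 4, with edgeR adjusted p up to 0.346.

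The only call at 3 h in iCRT14, peak 16013, was chosen for mention after its values were seen. The 4 head libraries held 199 to 306 CPM and the 5 foot libraries 7115, 346, 229, 164 and 787 CPM, so that the groups overlapped. Replicate 1 alone, with 62403 counts in this peak, set the fold (-2.81 ± 0.41, adjusted p = 2.45e-05). Without that replicate the log2 difference was -0.74 and was not called.

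At 8 h in iCRT14 peak 83227 was the most above foot in head regenerates, at 204, 103, 123, 80.7 and 119 CPM against 65.0, 40.8, 30.6 and 63.6 CPM (1.33 ± 0.29, adjusted p = 0.00447). Peak 65672 was the most below, at 2.60, 4.22, 3.2955, 7.90 and 4.17 CPM against 13.4, 14.9, 10.2 and 14.6 CPM (-1.65 ± 0.23, adjusted p = 1.72e-06). Peaks 110193 (1.26 ± 0.34) and 30585 (-1.26 ± 0.18) were next, and the call of peak 110193 was lost under 5 of 13 alternatives, no filter and leaving out replicate 1, 2, 3 or 4 (edgeR adjusted p up to 0.159). At 12 h peak 91183 was higher in head regenerates, at 25.3 ± 5.17 CPM (n = 4) against 7.93 ± 1.52 CPM (SD, n = 5, 1.66 ± 0.14, adjusted p = 2.82e-15). Peak 83012 was higher in foot regenerates with inhibitor as well, at 22.9 ± 5.22 CPM (n = 5) against 6.37 ± 2.03 CPM (SD, n = 4, -1.82 ± 0.20, adjusted p = 2.67e-11). Apart from peak 16013, the groups of the peaks named here did not overlap.

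A difference of the inhibitor's effect between head and foot was tested with an interaction term. At 8 h it was called in 15 of the widest peaks (0.170%, against 0.195% of all tested peaks) and at 12 h in 81 (0.921%, against 0.722%). Peak 115472 (1877 bp, Sc4wPfr_977, 640608 to 642485) had the smallest adjusted p at 8 h. It went from 34.7 ± 4.69 to 52.9 ± 14.8 CPM with inhibitor in head (SD, n = 5) and from 21.5 ± 3.39 (n = 5) to 93.3 ± 19.3 CPM (n = 4) in foot regenerates, an interaction of -1.50 ± 0.22 on the log2 scale (adjusted p = 8.7e-06). Peaks 31505 (-1.31 ± 0.20) and 2716 (-1.26 ± 0.20) had lower means in iCRT14 in head and higher means in foot regenerates.

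At 12 h peak 50057 (1857 bp, Sc4wPfr_292, 554117 to 555974) crossed over. Its head libraries held 18.1, 15.1, 19.7 and 18.5 CPM in iCRT14 and 8.83, 9.90, 10.4, 8.72 and 6.06 CPM without it, while its foot libraries held 9.04, 8.98, 10.4, 13.3 and 9.69 CPM in iCRT14 and 17.1, 15.6, 16.9, 21.3 and 18.2 CPM without it. The inhibitor groups did not overlap with the untreated ones on either side, and the interaction was 1.80 ± 0.20 (adjusted p = 9.41e-10). Peaks 111496 (1.61 ± 0.21) and 32887 (1.46 ± 0.21) differed in the same sense, with higher means in iCRT14 in head and lower means in foot regenerates.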

How the data were processed

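ATAC-seq was measured in 71 libraries of the series' 113 samples. The authors deposited a table of whole-number counts per peak and library, and a second peak set for the 36 untreated libraries. The submitters' processing notes name Trimmomatic 0.36, Bowtie2 2.2.6, Picard 2.17.8, SAMtools 1.2, deepTools 3.3.1 and DiffBind. The build, the coordinate base and whether 1 was added to every count are not given in the sources used here. The smallest deposited count is 1, at which 3.94% of values stand. No column of the table was left unmapped (0 unused columns).

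The widest peaks, the named-peak rule and the comparisons were chosen with earlier results of these data known. Counts were tested with edgeR 4.0.16 (R 4.3.3, limma 3.58.1), using its filter on low counts, TMM scaling, 1 mean per group over all 71 libraries, the quasi-likelihood test and Benjamini-Hochberg adjustment over 108934 peaks. The threshold was an adjusted p of 0.05, and a second rule added a log2 fold change of 1 in size. CPM are the deposited counts scaled to the TMM-adjusted library size, and ± after a log2 value is an SE. Within-group SDs used log2 of CPM plus 0.5. The script for the fits was tested on simulated data. Tables and figures used Python 3.11.15, numpy 2.4.6, pandas 2.3.3 and matplotlib 3.10.9.

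Named were the 5 widest peaks, the 5 highest and 3 lowest by mean CPM, the 2 largest gains and 2 largest losses per comparison of 2 groups among called peaks whose groups did not overlap, the 3 smallest adjusted p per interaction, the 3 called most often and the longest run. Where a comparison called at most 5 peaks and none met this, those were named, a part added after the values were seen (peak 16013). Among 126 pairs of libraries within groups 0 were identical, and the lowest chi-square per degree of freedom was 2.16, so each library was counted. Same-numbered libraries were checked for deviating together, with an r of at least 0.1 asked of every pair. Only head against foot at 3 h untreated met this (3 pairs, r from 0.36 to 0.71), where the number comes from the labels. For head against foot at 0 h untreated r ran from 0.05 to 0.35 (5 pairs). Alternatives were DESeq2 1.42.0, its size factors in edgeR, library size alone, no filter, 1 subtracted from every count, only the groups compared, replicate blocks, the untreated peak set and each replicate number left out.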

Additional observations from a re-analysis of the deposited data

Results flagged for a closer look

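The effect of iCRT14 differed between head and foot regenerates, by the test of the difference itself, in 15 of the widest peaks at 8 h (0.170%, against 0.195% of all tested peaks) and in 81 at 12 h (0.921%, against 0.722%). Without replicate 4 the first count was 6, and without replicate 3 the second was 23.

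Single libraries stood apart from the rest of their group in 9 of the 156 groups of 4 or 5 libraries examined for the peaks named by comparison, while chance flags about 1 in 20 groups. Peak 110143 was highest in replicate 3 of foot regenerates at 0 h (29.8 CPM). Peak 39954 was highest in replicate 5 of foot regenerates at 8 h (22.3 CPM). Peak 2716 was highest in the same replicate of that group (8.86 CPM). Peak 86112 was highest in replicate 5 of foot regenerates at 0 h (221 CPM). Peak 101585 was highest in replicate 5 of foot regenerates at 12 h (36.8 CPM). Peak 11010 was lowest in replicate 1 of foot regenerates at 0 h (10.1 CPM). Peak 112667 was highest in replicate 2 of head regenerates at 12 h (0.935 CPM). In iCRT14 at 3 h, foot regenerates had peak 22700 highest in replicate 5 (29.3 CPM) and peak 16013 highest in replicate 1 (7115 CPM). None of the 14 groups examined for the share of counts in the widest peaks stood out in this way.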

How the results depend on the processing

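Of 316 values under alternatives, most were counts of called widest peaks and the rest the share of counts in these peaks. Of them 238 were kept, counts within 1.5 times and the share within its pooled within-group SD of 0.313%. Every count under the additive replicate block stayed within 1.5 times. Among 1108 values of 90 named peak comparisons, 1064 kept call and direction, 44 lost the call and 0 reversed. The causes were not tested. With only the groups compared, head against foot untreated gave 284 at 0 h, 9 at 3 h and 741 at 12 h. In iCRT14 it gave 108 at 0 h, 0 at 3 h and 41 at 8 h. For that 0, 778 had an unadjusted p below 0.05 and DESeq2 called 2. The inhibitor gave 2239, 927 and 1451 in head regenerates at 0, 3 and 8 h and 869 in foot regenerates at 12 h, and the interactions 6 and 132. With head and foot of the same number as pairs (replicate block), head against foot gave 288, 213, 662 and 822 untreated and 116, 80, 371 and 981 in iCRT14 at 0, 3, 8 and 12 h. Only at 3 h untreated did numbers pair the libraries by the check, which asked for an r of at least 0.1 in every pair. At 0 h untreated r ran from 0.05 to 0.35, and 4 of 5 matched best with their own number. Head against foot at 0 h in iCRT14 gave 14 with DESeq2 size factors, 17 with library size alone and 25 with DESeq2, and the interaction at 8 h gave 24 with library size alone. Without head replicate 3 at 12 h in iCRT14, chosen after seeing the data, the inhibitor gave 410 and head against foot 338. With 2000 bp as the limit the share of counts was 6.13%. Peaks 46580, 68880, 112667, 19950, 40893, 115439, 110193, 75207 and 16013 lost a call in at least 1 comparison under an alternative.

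Leaving out each replicate number from all groups gave, for head against foot untreated, 59 to 132 at 0 h, 16 to 83 at 3 h, 234 to 302 at 8 h and 235 to 368 at 12 h, lowest without replicate 3 at 0 h and 2 later. Against 0 h it gave 1006 to 1510, 815 to 2218 and 1968 to 2506 in head (lowest without 1, 3 and 4) and 1595 to 2040, 973 to 2421 and 1152 to 2151 in foot regenerates (1, 4 and 3) at 3, 8 and 12 h. The inhibitor gave 910 to 1407, 883 to 1749, 1687 to 2723 and 263 to 821 in head (3, 3, 4 and 3) and 1202 to 3563, 1038 to 2419, 1539 to 2466 and 275 to 528 in foot regenerates (3 each) at 0, 3, 8 and 12 h. Head against foot in iCRT14 gave 2 to 24, 0 to 17, 75 to 138 and 232 to 713 (3, 1, 2 and 3), and the interactions 6 to 12 and 23 to 73 (4 and 3).

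With library size alone, head against foot at 3 h had 36.9% of calls higher in place of 49.4%, and at 0 h in iCRT14 58.8% in place of 77.8% (DESeq2 size factors 92.9%, DESeq2 88.0%). Depth, from 4.73 to 42.3 M counts (M, mega), limits what peaks under 1 CPM can show.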

Other observations

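Some of the widest peaks named for their fold changes lay close together. Of the 50 peaks so named, 9 pairs shared a scaffold, and in 5 pairs (10 peaks) the gap was under 50 kb. Peaks 113776 and 113778 on Sc4wPfr_950, the gains of head regenerates at 3 h in iCRT14, were 2.5 kb apart. Peaks 40668 and 40674 on Sc4wPfr_246 were 15.3 kb apart, and both were named as gains in iCRT14 in head regenerates. Peaks 26754 and 26760 on Sc4wPfr_1747, both higher in foot regenerates at 8 h, were 17.2 kb apart. Peaks 86112 and 86119 on Sc4wPfr_569 were 28.9 kb apart and peaks 101572 and 101585 on Sc4wPfr_758 were 40.9 kb apart. Whether neighbours share a course more often than other pairs was not tested.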
